A study of Bos taurus with 4 samples.

Results

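Glycolysis and the hypoxia response were followed through 39 listed genes in bovine intramuscular preadipocytes. All probes carrying one of those gene names were taken, with the older name PKM2 counted as PKM. They were 119 probes of 38 genes, among 43653 probes and 25157 genes on the array. No probe carried the name HK2. The genes fall into 21 glycolytic genes with 76 probes (glucose uptake, the enzymes of glycolysis, the fate of pyruvate and regulators of flux) and 17 hypoxia genes with 43 probes (the hypoxia-inducible factors, oxygen sensors and other induced genes). All 38 genes passed the filter on dim probes and were tested.

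Glycolysis turns glucose into pyruvate in the cytosol, and pyruvate is then reduced to lactate or taken into mitochondria. Hypoxia-inducible factor is a pair of an alpha subunit (HIF1A or EPAS1, the latter also known as HIF2A) and a beta subunit. In the presence of oxygen, prolyl hydroxylases mark the alpha subunit for degradation, so its activity is set largely at the level of protein, which arrays of RNA do not measure. Many glycolytic genes are known targets of the factor, and glucose use also feeds the synthesis of fat in adipocytes.

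RNA was measured with 1 colour (Cy3) in 4 groups of 3 arrays, 12 in all. The cells were BIP cells, known as a clonal line from bovine muscle. Day 0 was untreated. The other groups had spent 6 days after confluence in adipogenic medium (DMEM with insulin at 50 ng/mL, dexamethasone at 0.25 µM, octanoate at 5 mM, acetic acid at 10 mM and 10% fetal bovine serum), with no further agent (day 6 control), with ATRA at 1 µM or with 9cRA at 1 µM. ATRA and 9cRA, all-trans and 9-cis retinoic acid, are isomers that differ in the geometry of a double bond. All groups are of the same cells, and no group was labelled with a change of oxygen. Because no culture spent the 6 days outside this medium, the effect of the medium cannot be told apart from that of elapsed time. Whether arrays of one group represent separate cultures is not given in the labels. All p-values therefore rest on variation among arrays, possibly technical.

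The arrays lay on 3 slides, which are also the scans: the 3 day 0 arrays with day 6 control array 1, day 6 control arrays 2 and 3 with ATRA arrays 1 and 2, and ATRA array 3 with the 3 9cRA arrays. Day 6 control and 9cRA therefore share no slide. The 75th percentile of signal lay between 1094 and 1359 intensity units. Day 6 control array 1 had 64.8% of its spots well above background and 103 non-uniform spots, against 68.7% to 74.0% and at most 2 on the other arrays. No spot was saturated. The markers of stroma were detected throughout: all 9 were tested, and their summed signal, relative to the 75th percentile, ran from 350 to 374 at day 0, 584 to 602 in the day 6 control, 341 to 381 with ATRA and 365 to 372 with 9cRA. The lower sums with retinoids were not shared by most of these markers. Their median log2 difference from the day 6 control was 0.02 with ATRA and 0.03 with 9cRA.

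A level is given below as log2 signal relative to the 75th percentile of its array, and a difference of 1 between groups is a 2-fold change. Levels of different probes are not compared. A gene is represented by its brightest probe and called where limma's adjusted p is under 0.05.

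After 6 days in the medium, most genes of both kinds were higher than at day 0. Of the 21 glycolytic genes, 17 rose, 1 fell and 3 did not pass the test, with a median difference of 0.73. Of the 17 hypoxia genes, 14 rose, 1 fell and 2 did not pass, with a median of 1.08. Over all 17625 genes tested the median was 0.005 and 62.3% were called (31% higher, 31.3% lower), against 33 of the 38 members. At least 2-fold rises were found for 17 members, against 8.47% of all genes. The arrays of the 2 groups did not overlap for 35 members, against 67.6% of all genes.

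**Figure D1:**
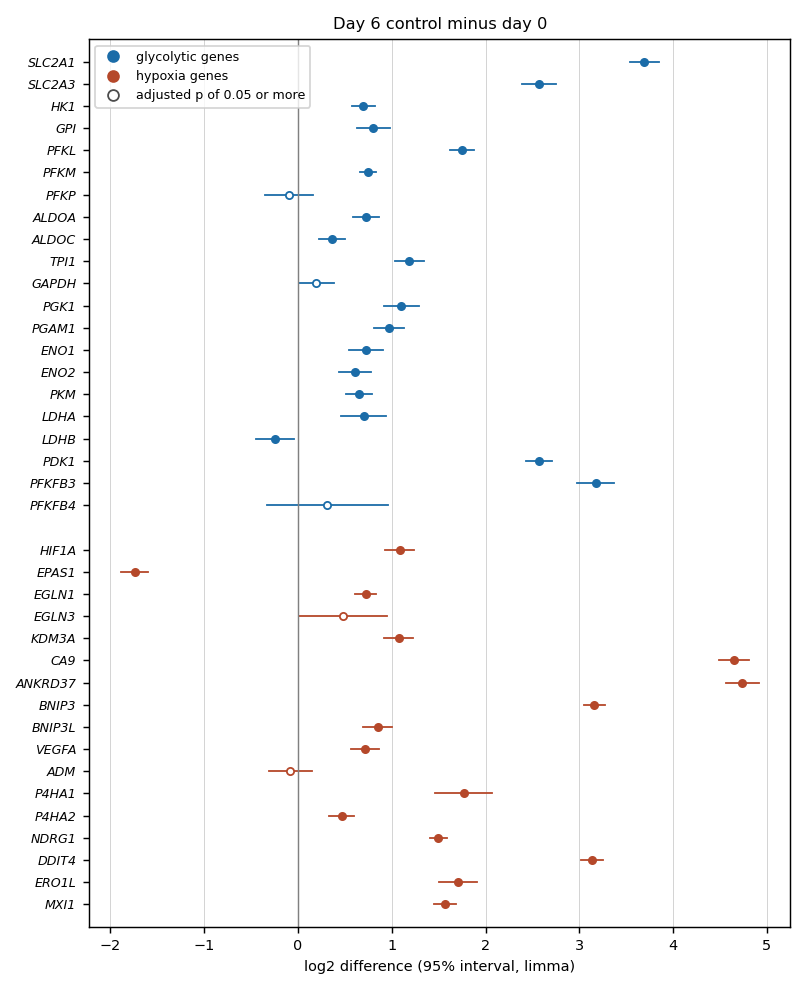
Log2 difference of day 6 control minus day 0 for each of the 38 genes, glycolytic genes in blue above and hypoxia genes in red below, with the 95% limma interval as a line. Filled markers have an adjusted p under 0.05 and open ones do not; ANKRD37 (4.74) and CA9 (4.65) lie farthest to the right, and EPAS1 (-1.74) farthest to the left.

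Both glucose transporters rose. SLC2A1 (GLUT1, the transporter of basal uptake; probe at chr3:103931015-103931074, plus strand, UMD_3.1) had levels of -2.10, -2.17 and -2.04 on the day 0 arrays, 1.64, 1.63 and 1.5 in the day 6 control, 1.46, 1.31 and 1.21 with ATRA and 1.40, 1.38 and 1.38 with 9cRA. All arrays of the 3 later groups thus stood far above all day 0 arrays. The rise from day 0 to the day 6 control was 3.69 ± 0.07 (SE, n = 3 arrays per group), or 12.9-fold, with an adjusted p of 6.6e-11. SLC2A3 (GLUT3, a transporter of high affinity) stood at 1.32, 1.15 and 1.06 at day 0, 3.62, 3.84 and 3.78 in the day 6 control, 4.72, 4.58 and 4.60 with ATRA and 4.72, 4.65 and 4.61 with 9cRA. Its arrays formed 3 separate steps, day 0 lowest and both retinoids highest. The rise to day 6 was 2.57 ± 0.08, or 5.92-fold (adjusted p = 1.9e-09).

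Of the 14 enzymes of the pathway itself, 12 rose from day 0 to the day 6 control, none fell, and PFKP and GAPDH did not pass. PFKL, the liver form of phosphofructokinase, the committing step of glycolysis, led them. Its levels were 3.59, 3.62 and 3.56 at day 0, 5.39, 5.42 and 5.23 in the day 6 control, 4.98, 4.93 and 4.88 with ATRA and 4.97, 4.91 and 4.89 with 9cRA. The day 6 control was highest on every array, day 0 lowest, and both retinoid groups lay between without overlap. The difference from day 0 was 1.75 ± 0.06, or 3.37-fold. The muscle form PFKM rose by 0.75 ± 0.04 and the platelet form PFKP differed by -0.09 ± 0.12, with an interval of -0.35 to 0.16. Next in size were TPI1 (triose phosphate isomerase, 1.19), PGK1 (phosphoglycerate kinase, 1.10) and PGAM1 (phosphoglycerate mutase, 0.97).

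The remaining enzymes rose by less than 2-fold. They were GPI (glucose phosphate isomerase, 0.80), ENO1 and ENO2 (enolases, 0.73 and 0.61), ALDOA and ALDOC (aldolases, 0.72 and 0.36), HK1 (hexokinase, 0.70) and PKM (pyruvate kinase, 0.65). GAPDH, which oxidizes glyceraldehyde phosphate and is often used as a reference gene, differed by 0.19 ± 0.08 (adjusted p = 0.065) on its brightest probe. That difference passed with quantile normalization (0.39, adjusted p = 5.7e-05), with the slide as a block (0.25, adjusted p = 0.029) and without day 6 control array 3 (0.26, adjusted p = 0.028).

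GAPDH has 8 probes, and the brightest one is not placed at the same locus as the rest: it maps to chr1:93140380-93140439, the other 7 to chromosome 5. All 7 chromosome 5 probes were called higher in the day 6 control than at day 0, by 0.47 to 0.85. Several of these probes cover overlapping stretches with different letters, which are shown here because the reading of GAPDH turns on which transcript a probe binds. The first of them spans chr5:104239006-104239157, minus strand, a stretch longer than its 60 bases. Whether it crosses an intron was not tested. Capitals mark bases that differ from it at the aligned position (4 of 57 overlapping bases in the second, 4 of 54 in the third).
A_73_P108926: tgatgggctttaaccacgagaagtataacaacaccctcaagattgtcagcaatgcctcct
A_73_P195967: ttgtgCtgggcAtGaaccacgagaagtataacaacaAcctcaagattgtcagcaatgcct
A_73_P082516: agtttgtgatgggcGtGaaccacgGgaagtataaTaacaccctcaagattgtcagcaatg
The differences from day 0 to the day 6 control on these probes were 0.71, 0.85 and 0.64 in that order. All were called, and all exceeded the 0.19 of the chromosome 1 probe. Which copy of the gene each probe measures was not tested.

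ENO1 also has 2 overlapping probes on chromosome 16 (plus strand, the first at chr16:45406747-45408106). They differ in 2 of 26 overlapping bases, both at the end of the second probe and not spread along it as for GAPDH. Whether they cover the same exon junction was not tested.
A_73_P394271: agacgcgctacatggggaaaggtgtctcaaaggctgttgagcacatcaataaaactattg
A_73_P456551: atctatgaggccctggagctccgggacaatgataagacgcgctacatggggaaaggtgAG
These rose by 1.21 and 0.94 from day 0 to the day 6 control. The 5 ENO1 probes as a whole rose by 0.73 to 1.33.

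At the end of the pathway, the genes that decide the fate of pyruvate moved apart. PDK1, a kinase that inactivates pyruvate dehydrogenase and so limits the oxidation of pyruvate, had levels of -0.64, -0.57 and -0.50 at day 0, 1.97, 2.02 and 2.00 in the day 6 control, 1.23, 1.04 and 1.01 with ATRA and 1.27, 1.18 and 1.25 with 9cRA. No arrays of day 0, the day 6 control and either retinoid overlapped, and the retinoid groups lay between the others. PDK1 rose by 2.57 ± 0.06 to the day 6 control, or 5.93-fold (adjusted p = 3.5e-10). LDHA, the lactate dehydrogenase subunit that favors lactate, stood at 5.83, 5.86 and 5.80 at day 0, 6.77, 6.51 and 6.31 in the day 6 control, 5.86, 5.85 and 5.81 with ATRA and 5.86, 5.98 and 6.16 with 9cRA. The day 6 control arrays were the highest and also the most spread, while the ATRA arrays lay within or beside the range of day 0. LDHA rose by 0.70 ± 0.11 (adjusted p = 0.00023). LDHB, the subunit that favors pyruvate, was lower by -0.24 ± 0.09 (adjusted p = 0.034) and was the only glycolytic gene called lower. That call was lost with quantile normalization (-0.05, adjusted p = 0.53), with the slide as a block (-0.07, adjusted p = 0.64) and on leaving out any one of the 6 arrays except day 6 control array 1 (adjusted p of 0.063 to 0.12).

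The probes of both lactate dehydrogenase subunits that cross an intron are printed because they repeat the comparison away from the brightest probes. The LDHA probe lies at chr29:26547482-26548203 (minus strand) and the LDHB probe at chr5:88979545-88980879 (plus strand).
LDHA A_73_P362966: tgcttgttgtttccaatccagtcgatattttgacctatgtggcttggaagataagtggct
LDHB A_73_P100116: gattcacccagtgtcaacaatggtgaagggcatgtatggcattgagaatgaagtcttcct
The LDHA probe rose by 0.93 and the LDHB probe differed by -0.22, which was not called.

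PFKFB3 and PFKFB4 make and remove the fructose bisphosphate isomer that activates phosphofructokinase. PFKFB3 had levels of 0.79, 0.60 and 0.50 at day 0, 3.83, 3.69 and 3.89 in the day 6 control, 3.55, 3.46 and 3.36 with ATRA and 3.70, 3.57 and 3.56 with 9cRA. Its day 0 arrays stood far below all others. The rise was 3.17 ± 0.09 to the day 6 control, or 9.01-fold (adjusted p = 7.0e-10). PFKFB4 lay near background at about -5.03 to -4.70 in the mean of each group, and its difference of 0.31 ± 0.29 did not pass.

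**Figure D2:**
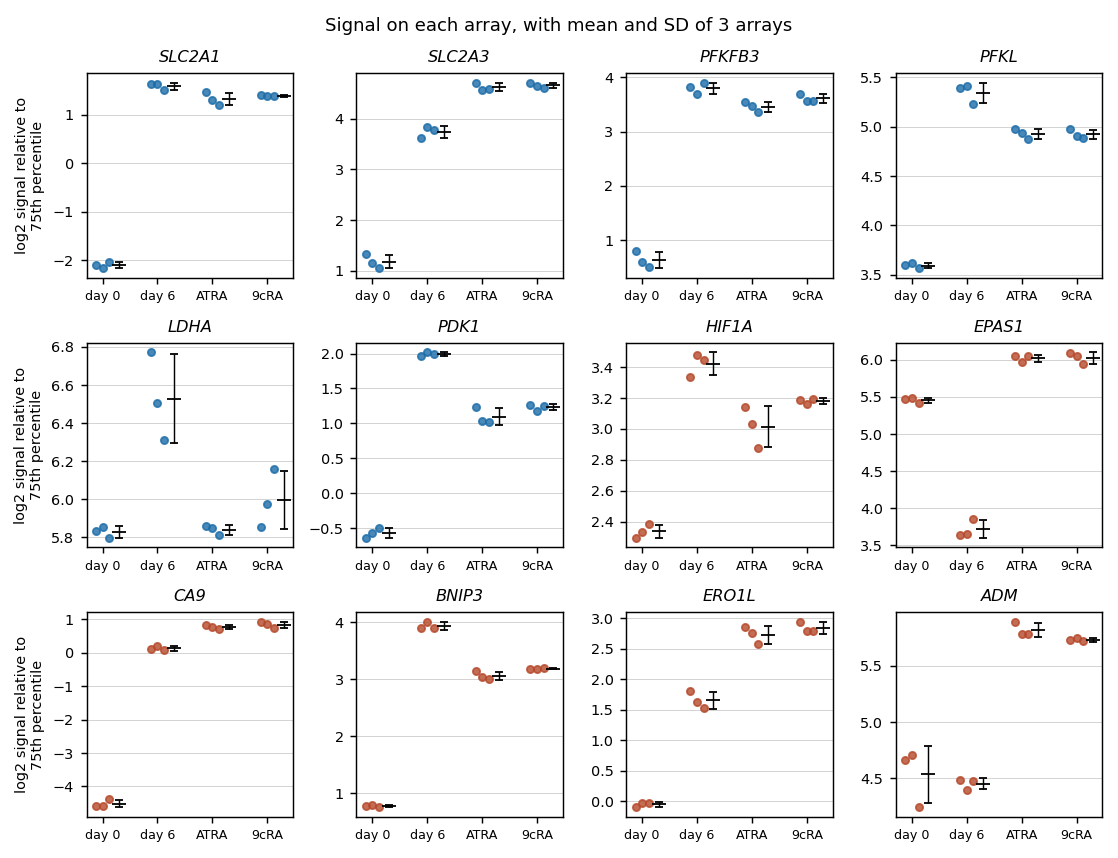
Level (log2 signal relative to the array's 75th percentile) on each of the 12 arrays for 12 genes, glycolytic in blue and hypoxia genes in red, with the mean and SD of 3 arrays beside the points; the vertical scale differs between panels. PDK1 and PFKL stand between day 0 and the day 6 control with either retinoid, LDHA with ATRA is at its day 0 level, and EPAS1 is lowest in the day 6 control.

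The alpha subunits of the hypoxia-inducible factor went in opposite directions. HIF1A (probe at chr10:74140475-74140533, plus strand) had levels of 2.30, 2.34 and 2.38 at day 0, 3.34, 3.48 and 3.45 in the day 6 control, 3.14, 3.03 and 2.88 with ATRA and 3.19, 3.16 and 3.20 with 9cRA. Day 0 was lowest, the day 6 control highest, and the retinoid arrays lay between. EPAS1 (chr11:28668686-28668745, plus strand) stood at 5.47, 5.48 and 5.42 at day 0, 3.64, 3.66 and 3.85 in the day 6 control, 6.05, 5.97 and 6.05 with ATRA and 6.09, 6.05 and 5.94 with 9cRA. Its day 6 control arrays were far below all others, and both retinoid groups were above day 0. From day 0 to the day 6 control HIF1A rose by 1.08 ± 0.07 (2.12-fold, adjusted p = 2.8e-07) and EPAS1 fell by 1.74 ± 0.07 on the log2 scale (3.34-fold lower, adjusted p = 6.6e-09).

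EPAS1 was the only hypoxia gene called lower at day 6 with all arrays. It was lower on all 3 of its probes, among them one that crosses an intron at chr11:28664237-28664506 and is shown because it spans a splice junction.
EPAS1 A_73_P033606: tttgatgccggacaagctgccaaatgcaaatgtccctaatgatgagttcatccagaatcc
On that probe the difference from day 0 was -2.0. EPAS1 is also a known gene of endothelial cells, so the endothelial markers were read beside it. Their summed signal was 0.22 to 0.27 at day 0, 0.24 to 0.34 in the day 6 control, 0.57 to 0.71 with ATRA and 0.53 to 0.65 with 9cRA. Of the 8 markers 5 were tested, and PECAM1 was well above background on none of the arrays, CDH5 on 1 and TIE1 on 2. At day 6, 2 of the 5 were higher than at day 0 (TEK by 1.63, and KDR at least 1.66-fold, adjusted p = 0.0079, from a dim day 0 signal) and 1 was lower (VWF, -0.39), with a median of 0.33 over the 5. Against the day 6 control, VWF (2.34) and TEK (0.43) were higher with ATRA and VWF (1.96) and ROBO4 (0.80) with 9cRA, and none was lower. BIP cells are known as a clonal line, so these signals need not come from endothelial cells. Whether such cells were present or had a part in the EPAS1 values was not tested. Fewer cells of a type cannot be told apart from less RNA per cell in these cultures.

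Of the oxygen sensors and feedback genes, EGLN1 (the main prolyl hydroxylase of the factor) rose by 0.72 ± 0.05 and KDM3A (a histone demethylase) by 1.07 ± 0.07. EGLN3, a hydroxylase that hypoxia induces, differed by 0.48 ± 0.21 (adjusted p = 0.070). It was close to background, with levels of -5.48 at day 0 and -5.00 in the day 6 control, where 2 of 3 arrays were well above background.

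Among the other 12 hypoxia-induced genes, 11 rose from day 0 to the day 6 control and ADM did not pass. The rises of ANKRD37 and CA9 were the largest of all members. ANKRD37, an ankyrin repeat protein known as a direct target, had levels of -4.01, -3.94 and -3.94 at day 0, 0.72, 0.90 and 0.71 in the day 6 control, 0.72, 0.73 and 0.73 with ATRA and 0.77, 0.93 and 1.07 with 9cRA. CA9, a carbonic anhydrase at the cell surface and a widely used hypoxia marker, stood at -4.57, -4.59 and -4.38, then 0.11, 0.20 and 0.08, then 0.82, 0.78 and 0.70 with ATRA and 0.93, 0.85 and 0.73 with 9cRA. Both genes were dim at day 0, though well above background on all 3 arrays, and stood above the 75th percentile on every later array. ANKRD37 rose by 4.74 ± 0.08 (26.7-fold, adjusted p = 2.5e-11) and CA9 by 4.65 ± 0.07 (25.1-fold, adjusted p = 2.3e-11).

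BNIP3, which drives the removal of mitochondria, had levels of 0.78, 0.79 and 0.75 at day 0, 3.90, 4.01 and 3.90 in the day 6 control, 3.14, 3.04 and 2.99 with ATRA and 3.18, 3.17 and 3.20 with 9cRA. DDIT4 (REDD1, an inhibitor of the mTOR kinase) stood at 3.15, 3.23 and 3.21, then 6.24, 6.39 and 6.36, then 5.88, 5.83 and 5.82 with ATRA and 5.79, 5.81 and 5.88 with 9cRA. P4HA1, a collagen prolyl hydroxylase subunit, stood at 0.72, 0.82 and 0.83, then 2.18, 2.82 and 2.67, then 2.23, 2.27 and 2.09 with ATRA and 2.24, 2.18 and 2.33 with 9cRA. In each of these genes the day 6 control was above day 0 on every array, and for P4HA1 day 6 control array 1 lay below the other day 6 control arrays, among the retinoid values. BNIP3 rose by 3.16 ± 0.05 (8.93-fold), DDIT4 by 3.14 ± 0.05 (8.79-fold) and P4HA1 by 1.77 ± 0.14 (3.40-fold).

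Smaller rises were those of ERO1L (an oxidase of the endoplasmic reticulum, 1.71), MXI1 (an antagonist of MYC, 1.57), NDRG1 (1.49), BNIP3L (a paralog of BNIP3, 0.85), VEGFA (the endothelial growth factor, 0.71) and P4HA2 (0.47). ADM, which encodes the vasodilator adrenomedullin, differed by -0.08 ± 0.10. Its day 0 array 3, at 4.24, stood below the other day 0 arrays at 4.66 and 4.70, and without it ADM was lower at day 6 by -0.23 (adjusted p = 0.0067).

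Within slide 1, the only slide that holds both groups, the 1 day 6 control array differed from the 3 day 0 arrays by 3.74 for SLC2A1, 3.20 for PFKFB3, 4.63 for CA9, 4.68 for ANKRD37 and -1.82 for EPAS1. With the slide as a block, 18 glycolytic genes were higher and none lower, and 14 hypoxia genes were higher and 1 lower, against 53.5% of all genes called in that fit.

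The second question of the design is what each retinoid changes by day 6. Both comparisons use the same day 6 control arrays, so their values stand side by side here and are not counted as separate support. With ATRA, 2 of the 21 glycolytic genes were higher than in the day 6 control, 12 lower and 7 not called, with a median of -0.26. Of the 17 hypoxia genes 7 were higher, 4 lower and 6 not called, with a median of 0.15. Over all genes 46.1% were called (23.7% higher, 22.4% lower) with a median of 0.052. With 9cRA, 2 glycolytic genes were higher, 10 lower and 9 not called (median -0.19), and 9 hypoxia genes were higher, 4 lower and 4 not called (median 0.24), against 46.6% of all genes called (24.8% higher, 21.8% lower) and a median of 0.058. At least 2-fold rises were those of 3 members with either retinoid (EPAS1, ADM and ERO1L), against 4.23% of all genes with ATRA and 4.39% with 9cRA. The arrays did not overlap for 29 members with ATRA and 26 with 9cRA, against 53.9% and 54.5% of all genes.

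**Figure D3:**
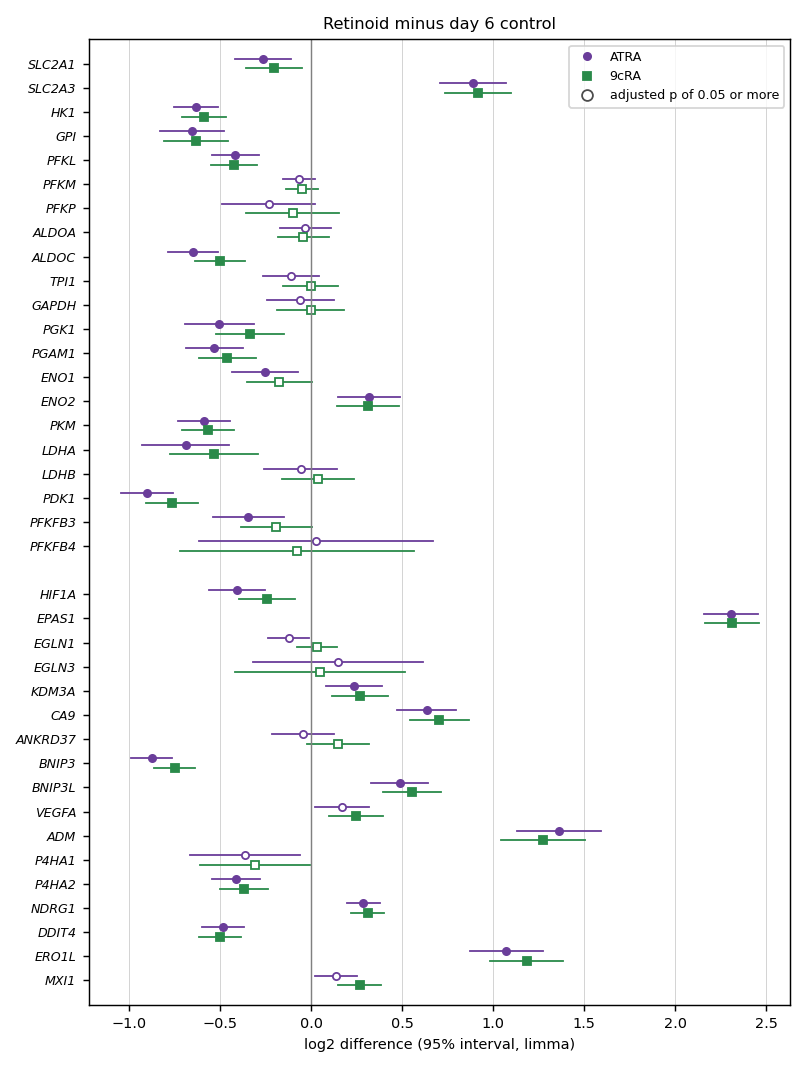
Log2 difference from the day 6 control with ATRA (purple circles) and 9cRA (green squares) for each gene, glycolytic genes above and hypoxia genes below, with 95% limma intervals; open markers have an adjusted p of 0.05 or more. Both retinoids share the day 6 control arrays; EPAS1 lies at 2.31 with either, ADM at 1.36 and 1.27, and PDK1 at -0.90 and -0.76.

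The glucose transporters, which had both risen by day 6, parted with retinoids. SLC2A3 was higher still, by 0.89 ± 0.08 with ATRA (1.85-fold, adjusted p = 8.8e-06) and 0.92 ± 0.08 with 9cRA (1.89-fold, adjusted p = 7.5e-06). SLC2A1 was lower by -0.26 ± 0.07 with ATRA (adjusted p = 0.010) and -0.20 ± 0.07 with 9cRA (adjusted p = 0.036). With the slide as a block the SLC2A1 calls were lost (-0.18, adjusted p = 0.088, and 0.00, adjusted p = 1.00). The 9cRA call was also lost without 9cRA array 1, 2 or 3 or day 6 control array 1 or 2 (adjusted p of 0.064 to 0.095).

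Of the 14 pathway enzymes, 8 were lower with ATRA and 7 with 9cRA. GPI had levels of 5.15, 5.49 and 5.40 in the day 6 control, 4.76, 4.67 and 4.65 with ATRA and 4.74, 4.69 and 4.71 with 9cRA, against 4.57, 4.58 and 4.49 at day 0. HK1, the first enzyme of the pathway, stood at 4.04, 4.21 and 4.20, then 3.55, 3.51 and 3.50 with ATRA and 3.61, 3.52 and 3.56 with 9cRA, against 3.46, 3.49 and 3.41 at day 0. PKM, the last enzyme, stood at 5.81, 5.71 and 5.58, then 5.12, 5.03 and 5.17 with ATRA and 5.12, 5.19 and 5.09 with 9cRA, against 5.04, 5.06 and 5.05 at day 0. In all 3 genes the retinoid arrays lay well below the day 6 control and close to day 0.

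ALDOC went below its starting level with ATRA: its levels were 2.71, 2.77 and 2.73 at day 0, 3.18, 3.17 and 2.94 in the day 6 control, 2.45, 2.46 and 2.44 with ATRA and 2.58, 2.57 and 2.64 with 9cRA. Both retinoid groups lay under every day 0 array. The difference from the day 6 control was -0.65 ± 0.06 with ATRA (adjusted p = 1.3e-05) and -0.50 ± 0.06 with 9cRA (adjusted p = 9.3e-05). The corresponding differences were -0.65 and -0.63 for GPI, -0.63 and -0.59 for HK1, and -0.59 and -0.57 for PKM. PGAM1 (-0.53 and -0.46), PGK1 (-0.50 and -0.34) and PFKL (-0.42 with either) were also called lower.

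On its brightest probe, ENO1 was called with ATRA (-0.25, adjusted p = 0.026) and not with 9cRA (-0.18, adjusted p = 0.10). The ATRA call was lost without day 6 control array 2 (-0.17, adjusted p = 0.086) or ATRA array 2 (-0.20, adjusted p = 0.10). The 9cRA difference passed without day 6 control array 1 (-0.25, adjusted p = 0.028) and with the mean of the gene's probes (-0.48, adjusted p = 2.6e-05). Every other ENO1 probe was called lower with either retinoid, by -0.28 to -0.85 with ATRA and -0.21 to -0.77 with 9cRA. ENO2, the neuronal enolase, went the other way, by 0.32 and 0.31. ALDOA, TPI1, PFKM, PFKP and GAPDH differed by -0.23 to 0.00 on their brightest probes and were not called with either retinoid. The other PFKP probe was called lower with either (-0.15 with ATRA, -0.32 with 9cRA). Some PFKM probes were called lower with 9cRA only (-0.16 and -0.33). Without day 6 control array 3, TPI1 was lower with ATRA (-0.18, adjusted p = 0.029). The 7 chromosome 5 probes of GAPDH were each called lower, by -0.28 to -0.53 with ATRA and -0.24 to -0.49 with 9cRA, and its chromosome 1 probe was not.

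PDK1 fell by 0.90 ± 0.06 on the log2 scale with ATRA (1.87-fold lower, adjusted p = 1.4e-06) and by 0.76 ± 0.06 with 9cRA (1.70-fold lower, adjusted p = 5.1e-06). LDHA fell by 0.69 ± 0.11 with ATRA and 0.53 ± 0.11 with 9cRA, while LDHB differed by -0.06 and 0.04 and was not called. PFKFB3 was lower with ATRA (-0.34 ± 0.09, adjusted p = 0.0086), a call lost with the slide as a block (-0.28, adjusted p = 0.074), and differed by -0.19 with 9cRA (adjusted p = 0.098).

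Of the pair of alpha subunits, EPAS1 rose above its day 0 level with either retinoid and HIF1A went down. EPAS1 rose by 2.31 ± 0.07 with ATRA (4.94-fold, adjusted p = 2.6e-09) and by 2.31 ± 0.07 with 9cRA (4.96-fold, adjusted p = 2.9e-09), the largest retinoid differences of all members. Its probe printed above rose by 2.81 and 2.98. HIF1A fell by 0.41 ± 0.07 with ATRA (adjusted p = 0.00070) and by 0.24 ± 0.07 with 9cRA (adjusted p = 0.015). The 9cRA call of HIF1A was lost with the slide as a block (-0.07, adjusted p = 0.61) and without day 6 control array 2 (-0.21, adjusted p = 0.051).

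ADM and ERO1L followed EPAS1 in size. ADM had levels of 4.66, 4.70 and 4.24 at day 0, 4.49, 4.40 and 4.48 in the day 6 control, 5.89, 5.78 and 5.78 with ATRA and 5.72, 5.74 and 5.71 with 9cRA. ADM was bright in every group, and all its retinoid arrays stood above every array of day 0 and the day 6 control. The rise was 1.36 ± 0.10 with ATRA (2.57-fold, adjusted p = 2.3e-06) and 1.27 ± 0.10 with 9cRA (2.42-fold, adjusted p = 4.2e-06). ERO1L stood at -0.10, -0.03 and -0.02 at day 0, 1.81, 1.63 and 1.53 in the day 6 control, 2.86, 2.75 and 2.57 with ATRA and 2.94, 2.79 and 2.78 with 9cRA. Its arrays rose in separate steps as those of SLC2A3 did, by 1.07 ± 0.09 with ATRA (2.10-fold) and 1.18 ± 0.09 with 9cRA (2.27-fold) over the day 6 control.

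Intron-crossing probes of these genes are printed because they carry the same pattern on spliced RNA: the ADM probe at chr15:42912444-42912653 (minus strand) and the ERO1L probe at chr10:11461599-11469361 (plus strand).
ADM A_73_P101696: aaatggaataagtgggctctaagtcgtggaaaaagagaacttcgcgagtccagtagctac
ERO1L A_73_P330751: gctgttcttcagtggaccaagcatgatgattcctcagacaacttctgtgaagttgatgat
With ATRA and 9cRA, the ADM probe rose by 1.41 and 1.48, and the ERO1L probe by 1.37 and 1.28.

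The remaining hypoxia-induced genes split. CA9 (0.63 with ATRA, 0.70 with 9cRA), BNIP3L (0.49 and 0.55), NDRG1 (0.29 and 0.31) and KDM3A (0.24 and 0.27) were higher than in the day 6 control with either retinoid. BNIP3 (-0.88 and -0.75), DDIT4 (-0.48 and -0.50) and P4HA2 (-0.41 and -0.37) were lower with either. VEGFA (0.25) and MXI1 (0.27) were called with 9cRA, and their differences of 0.17 and 0.14 with ATRA were not. P4HA1 differed by -0.36 (adjusted p = 0.051) and -0.31 (adjusted p = 0.089), and ANKRD37, EGLN1 and EGLN3 by -0.12 to 0.15, without passing. With the mean of its probes P4HA1 was called lower with ATRA (-0.39, adjusted p = 0.0052) and 9cRA (-0.37, adjusted p = 0.0072).

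Single arrays and settings moved some of these calls. Without day 6 control array 1, the array with the fewest spots above background, P4HA1 was lower with ATRA (-0.55, adjusted p = 0.00034) and 9cRA (-0.49, adjusted p = 0.00068), and MXI1 was higher with ATRA (0.16, adjusted p = 0.048). KDM3A with ATRA was lost with median scaling (0.18, adjusted p = 0.068), with the mean of its probes (0.24, adjusted p = 0.16) and without day 6 control array 2 (0.19, adjusted p = 0.063) or ATRA array 2 (0.23, adjusted p = 0.050). EGLN1 was lower with ATRA without day 6 control array 3 (-0.15, adjusted p = 0.037) or ATRA array 1 (-0.15, adjusted p = 0.047), VEGFA higher without ATRA array 3 (0.21, adjusted p = 0.048), and ANKRD37 higher with 9cRA without 9cRA array 1 (0.22, adjusted p = 0.031). The 9cRA calls of VEGFA (0.21, adjusted p = 0.076), MXI1 (0.29, adjusted p = 0.12) and KDM3A (0.18, adjusted p = 0.29) were lost when a gene's probes were averaged, and that of VEGFA also with median scaling (0.18, adjusted p = 0.065).

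Within slide 2, which holds 2 arrays of the day 6 control and 2 of ATRA, the ATRA differences were 2.25 for EPAS1, 1.40 for ADM, 1.23 for ERO1L, 0.84 for SLC2A3, -0.87 for PDK1, -0.73 for GPI, -0.68 for HK1, -0.56 for PKM and -0.55 for LDHA. With the slide as a block, 2 glycolytic genes were higher and 10 lower with ATRA, and 7 hypoxia genes higher and 5 lower, against 38.8% of all genes called in that fit. The ATRA call of KDM3A was then lost (0.24, adjusted p = 0.071), while P4HA1 (-0.50, adjusted p = 0.0011) and VEGFA (0.23, adjusted p = 0.048) passed.

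The 9cRA arrays share no slide with the day 6 control, and the blocked fit links them only through the ATRA arrays. In it 1 glycolytic gene was higher and 5 lower, and 7 hypoxia genes higher and 2 lower, against 23.1% of all genes called. The calls of SLC2A1, HIF1A, LDHA (-0.37, adjusted p = 0.13), PGAM1 (-0.38, adjusted p = 0.061), PFKL (-0.32, adjusted p = 0.063), PGK1 (-0.26, adjusted p = 0.15), ENO2 (0.18, adjusted p = 0.26), P4HA2 (-0.20, adjusted p = 0.17), VEGFA (0.38, adjusted p = 0.055) and KDM3A (0.29, adjusted p = 0.18) were lost there.

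The isomers were compared with each other at the same dose of 1 µM and the same day, as 1 pair. None of the 38 members was called by limma, against 0.119% of all genes (0.0624% higher with ATRA, 0.0567% lower), and 6 had an unadjusted p under 0.05 (EGLN1, BNIP3, ANKRD37, MXI1, HIF1A and ALDOC). The arrays of the 2 groups did not overlap for 9 members, against 16.4% of all genes. The largest difference was -0.19 for ANKRD37, with an interval of -0.36 to -0.02. The intervals were -0.15 to 0.14 for EPAS1, -0.28 to 0.01 for PDK1, -0.40 to 0.08 for LDHA and -0.14 to 0.32 for ADM. The widest bound among all members was 0.74, for PFKFB4 near background. The intervals limit how far the isomers could differ and do not show that they act alike.

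**Figure D4:**
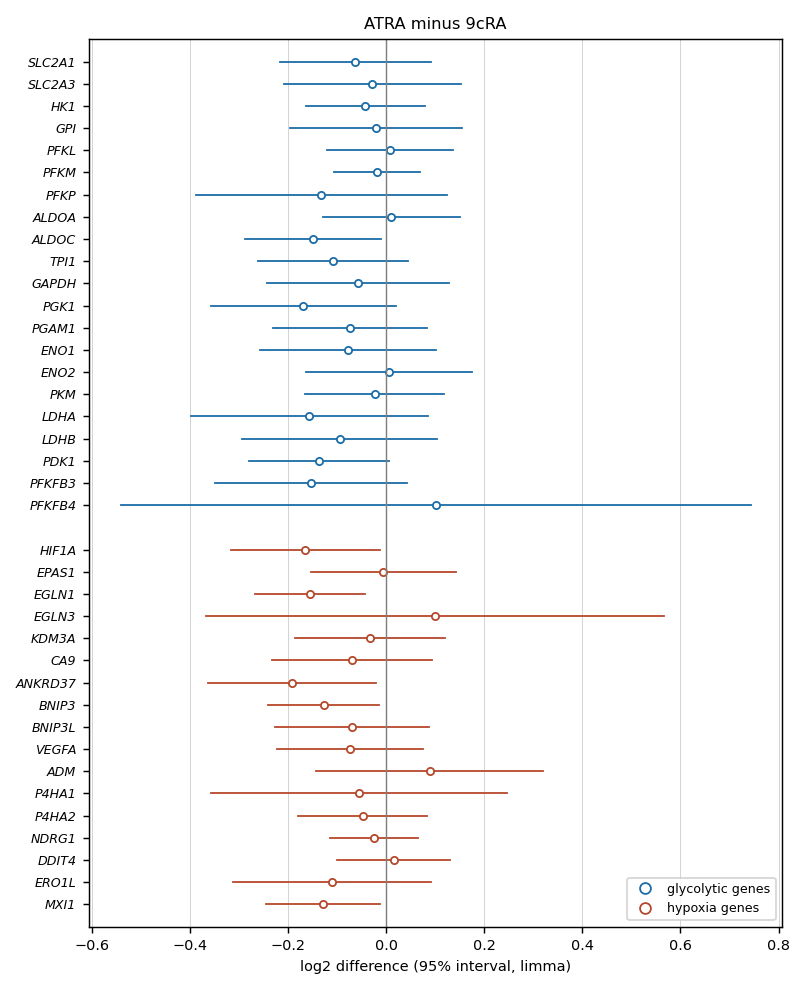
Log2 difference of ATRA minus 9cRA for each of the 38 genes, with the 95% limma interval as a line, glycolytic genes in blue and hypoxia genes in red. All markers are open (adjusted p of 0.05 or more) and lie between -0.19 and 0.10; the longest intervals are those of PFKFB4 and EGLN3, near background.

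The retinoid groups were also set against day 0, in comparisons that reuse the arrays above. With ATRA 12 glycolytic genes were higher than at day 0, 3 lower and 6 not called, and 16 of 17 hypoxia genes were higher and P4HA2 not called, against 71.5% of all genes called (38.7% higher, 32.8% lower). With 9cRA 12 glycolytic genes were higher, none lower and 9 not called, and again 16 hypoxia genes were higher, against 71.4% of all genes (39% higher, 32.4% lower). With either retinoid 17 members were at least 2-fold higher than at day 0, against 12.5% of all genes with ATRA and 12.3% with 9cRA. Members whose arrays did not overlap numbered 33 with ATRA and 34 with 9cRA, against 78.5% and 78.8% of all genes.

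The genes not called against day 0 with ATRA were LDHA (0.01, interval -0.23 to 0.25), PKM (0.06, interval -0.08 to 0.20), HK1 (0.07, interval -0.06 to 0.19), GAPDH (0.13), GPI (0.15), PFKFB4 (0.34) and P4HA2 (0.05). Large differences from day 0 were those of the uptake and control steps with either retinoid: SLC2A3 3.45 and 3.48, SLC2A1 3.43 and 3.49, PFKFB3 2.83 and 2.98, PDK1 1.67 and 1.80, and PFKL 1.34 and 1.33, ATRA first. So did CA9 (5.28 and 5.35), ANKRD37 (4.69 and 4.88), ERO1L (2.78 and 2.89), DDIT4 (2.65 and 2.64) and BNIP3 (2.28 and 2.41). With quantile normalization PKM (0.27), HK1 (0.23), GAPDH (0.26), GPI (0.37) and P4HA2 (0.26) were called higher than at day 0, and without ATRA array 2 GAPDH was (0.21, adjusted p = 0.049). With the mean of its probes P4HA2 was instead called lower than at day 0, with ATRA (-0.18, adjusted p = 0.012) and with 9cRA (-0.15, adjusted p = 0.031). The 3 glycolytic genes lower than at day 0 with ATRA were PFKP (-0.32), LDHB (-0.30) and ALDOC (-0.29), and with the slide as a block none of them was called (adjusted p of 0.70, 0.82 and 0.29). The PFKP call was also lost without day 0 array 2 or 3 or ATRA array 2 or 3 (adjusted p of 0.053 to 0.079). With 9cRA, LDHB passed without 9cRA array 3 (-0.27, adjusted p = 0.032) and PFKP without 9cRA array 1 (-0.32, adjusted p = 0.018).

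The call of EGLN3 against day 0 was the least stable of the hypoxia genes. With ATRA (0.63) it was lost without day 0 array 1 (adjusted p = 0.075) or ATRA array 3 (adjusted p = 0.071), and with 9cRA (0.53) without day 0 array 1 or 3 or 9cRA array 1 or 2 (adjusted p of 0.076 to 0.14). With the slide as a block it was 0.28 with ATRA and turned to -0.29 with 9cRA, without passing. The block also ended the calls of ENO1 (0.22 with ATRA, 0.21 with 9cRA) and of EPAS1 with 9cRA (0.42, adjusted p = 0.062), and LDHA with 9cRA then passed (0.58, adjusted p = 0.044).

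Partner genes of one step were set against each other by the difference of their levels on each array, with an exact two-sided permutation test, whose smallest possible p for 3 against 3 arrays is 0.1. From day 0 to the day 6 control, HIF1A changed by 2.82 more than EPAS1, PFKFB3 by 2.86 more than PFKFB4, BNIP3 by 2.31 more than BNIP3L, PFKL by 1.84 more than PFKP and 1.00 more than PFKM, P4HA1 by 1.30 more than P4HA2, SLC2A1 by 1.13 more than SLC2A3 and LDHA by 0.94 more than LDHB. The arrays of the groups did not overlap in any of these pairs (exact p = 0.1 each). ALDOA rose by 0.36 more than ALDOC, also without overlap (exact p = 0.1). The arrays overlapped for ENO1 less ENO2 (0.12, exact p = 0.5) and EGLN1 less EGLN3 (0.25, exact p = 0.2).

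With ATRA, against the day 6 control, the differences of changes were -2.71 for HIF1A less EPAS1, -1.36 for BNIP3 less BNIP3L, -1.15 for SLC2A1 less SLC2A3, -0.63 for LDHA less LDHB, 0.62 for ALDOA less ALDOC and -0.57 for ENO1 less ENO2, each without overlap (exact p = 0.1). With 9cRA the values were -2.55, -1.30, -1.12, -0.57, 0.46 and -0.49 in the same order, also without overlap. P4HA1 and P4HA2 overlapped with either retinoid (0.05 and 0.06, exact p = 1 each).

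Every gene's further probes were fitted as well. Of the 116 probes tested, 99 were higher and 4 lower in the day 6 control than at day 0, 20 higher and 57 lower with ATRA than in the day 6 control, and 24 higher and 55 lower with 9cRA. These counts weigh each gene by its number of probes, up to 8 for GAPDH. Over all genes, at 1 probe each, 62.3%, 46.1% and 46.6% were called in these comparisons. No gene among the 33 with several tested probes had probes called in both directions in any of them. A stretch longer than their 60 bases was spanned by 31 probes, a PGAM1 probe spanning only 84, and whether each crosses an intron was not tested. They counted 26 higher and 1 lower at day 6, 4 higher and 19 lower with ATRA and 5 higher and 21 lower with 9cRA. Sizes varied among probes of a gene: the BNIP3 probes rose by 1.00 to 3.16 and the PKM probes by 0.50 to 1.35.

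**Figure D5:**
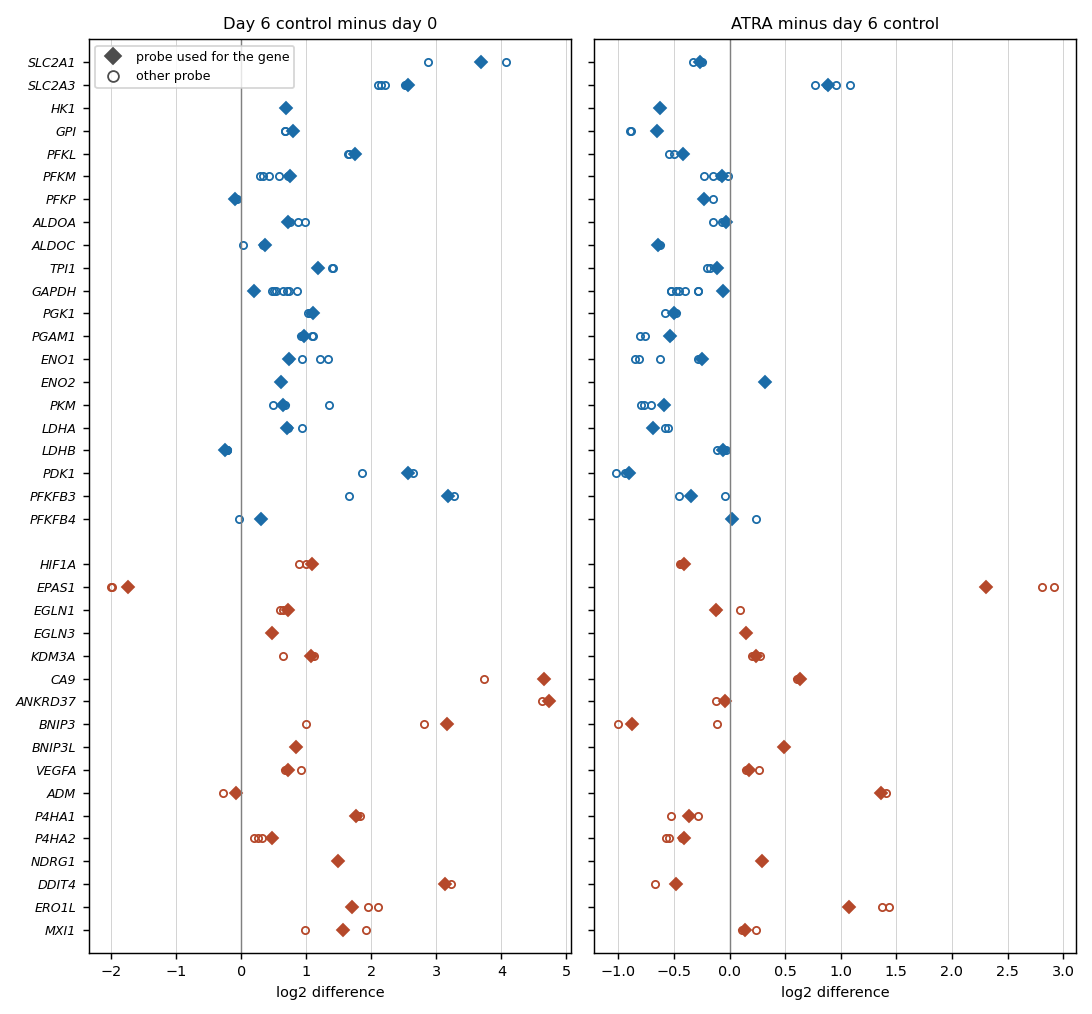
Log2 difference of each tested probe, by gene, for day 6 control minus day 0 (left) and ATRA minus day 6 control (right); diamonds are the probe used for the gene and circles its other probes, with glycolytic genes in blue and hypoxia genes in red. The GAPDH diamond (0.19) lies left of its 7 circles on the left panel, and all 3 EPAS1 probes lie at -1.74 to -2.0 there and at 2.31 to 2.92 on the right.

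The rest of the pathway was read from lists of genes that are no members. Their counts are to be read beside the shares of all genes called. Those were 31% higher and 31.3% lower at day 6, 23.7% and 22.4% with ATRA, and 24.8% and 21.8% with 9cRA. Of 14 tested components of the hypoxia-inducible factor machinery, only CITED2, an inhibitor of the factor that it also induces, was higher at day 6 (1.35), and 4 were lower: SIRT1 (-0.64), EGLN2 (-0.42, a prolyl hydroxylase), RBX1 (-0.26) and CUL2 (-0.20). With either retinoid 3 of the 14 were higher than in the day 6 control, 1 was lower and 10 were not called. The medians were 0.002 with ATRA and 0.0003 with 9cRA. ARNT2, a beta subunit, was higher by 1.29 with ATRA and 1.26 with 9cRA, and CREBBP, a coactivator, by 0.57 and 0.52. Of 24 other hypoxia-induced genes tested, 19 were higher and 3 lower at day 6, with a median of 0.89. SLC16A3, the lactate exporter MCT4, rose by 7.85 ± 0.09 and ANGPTL4, a secreted inhibitor of lipoprotein lipase that is also a known PPAR target, by 7.13 ± 0.08. BHLHE41 (-0.74), BHLHE40 (-0.31) and JMJD6 (-0.19) were lower. With ATRA 5 of the 24 were higher and 12 lower (median -0.30), and the counts with 9cRA were 5 and 12 (median -0.31). SLC16A3 fell by 1.01 and 0.83 on the log2 scale, as ATRA and 9cRA, and ANGPTL4 rose by 1.70 and 1.59. The other 4 called higher, ATRA first, were HILPDA (1.10 and 1.16), BHLHE40 (0.75 and 0.70), ZNF395 (0.63 and 0.44) and WSB1 (0.47 and 0.20).

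Of 22 other genes of glucose metabolism tested, 10 were higher and 5 lower at day 6 (median 0.24), against 62.3% of all genes called. ENO3, the muscle enolase, rose by 1.31, and PGM1, which joins glycolysis with glycogen, fell by 0.96 on the log2 scale. TIGAR was at least 1.18-fold lower at day 6, where it was not well above background, and PFKFB2 (-0.67), PCK2 (-0.50) and SLC2A8 (-0.39) were lower too. With ATRA 4 were higher and 6 lower than in the day 6 control, and with 9cRA also 4 and 6, against 46.1% and 46.6% of all genes called. Those higher, ATRA first, included SLC2A4 (0.46 and 0.47), PGM1 (0.26 and 0.31) and FBP2. FBP2, which was not well above background in the day 6 control, was at least 1.76-fold higher with either. Of 12 genes of pyruvate dehydrogenase and its regulators tested, PDK4 alone was higher at day 6. It was not well above background at day 0 and at least 15.5-fold higher in the day 6 control, taking for day 0 the higher of the lowest detected signal and its own on each array. The 6 lower genes included PDHB (-0.60), a subunit of the complex, and PDP2 (-0.54), the phosphatase that opposes the kinases.

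Of 7 tested genes of the pentose phosphate pathway, the branch that supplies NADPH, 6 were lower at day 6 and RPE was higher (0.25), with a median of -0.84. TKT (-1.17) and RPIA (-1.30) were the lowest by adjusted p, and both were higher with ATRA (0.38 and 0.57) and 9cRA (0.44 and 0.58) than in the day 6 control. Of the 7, however, 3 were higher, 3 lower and 1 not called with either retinoid (median -0.10 with ATRA, -0.07 with 9cRA). Of 8 tested glycogen genes, 4 were higher and 1 lower at day 6: GYS1 (glycogen synthase, 1.44), UGP2 (1.31), PPP1R3C (0.76) and PYGL (0.32) were higher, and GYG1 (glycogenin, -0.82) was the one lower. With ATRA none of the 8 was higher and 7 were lower (median -0.56), and with 9cRA all 8 were lower (median -0.53). GYS1 fell by 0.97 and 0.89 on the log2 scale.

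Markers of other cells also moved with the groups. The summed signal of the macrophage and leukocyte markers (5 of 7 tested) was 6.15 to 6.61 at day 0, 5.32 to 7.0 in the day 6 control, 9.04 to 9.68 with ATRA and 8.76 to 8.88 with 9cRA, and AIF1 and CD163 were well above background on none of the 12 arrays. That of the skeletal muscle markers (5 of 8 tested) was 6.26 to 6.57, 4.41 to 5.71, 3.30 to 3.52 and 3.39 to 3.72 in the same order of groups. The lower sums were not shared by most of these markers. Of the 5 tested, 1 was lower and 4 were not called at day 6 against day 0 (median 0.17). Against the day 6 control, 1 was lower and 4 were not called with either retinoid (median 0.21 with ATRA, 0.04 with 9cRA). The summed signal of the red blood cell markers (1 of 4 tested, HBA) was 4.23 to 5.04, 5.07 to 8.67, 8.31 to 13.9 and 8.08 to 11.7. HBA was called higher than at day 0 with ATRA (1.07, adjusted p = 0.0022) and 9cRA (1.06, adjusted p = 0.0024), and HBB and ALAS2 were well above background on none. As BIP cells are known as a clonal line, these signals need not come from other cells. Whether such cells were present or had a part in the members' values was not tested.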

How the data were processed

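RNA of the 4 groups was hybridised to Agilent bovine arrays, 3 per group. Per the file headers, the deposited intensity values (processed signal, background-subtracted and detrended, on a linear scale) came from Feature Extraction 10.7.3.1, and probe positions are on UMD_3.1; the annotation gives no exon or UTR. The authors also deposited a log2 table with 1 value per group. Set against the arrays, its columns were means of 3 arrays centred on each probe's median (r of 0.991, 0.958, 0.915 and 0.925 with the computed values; column medians 0.01, -0.01, 0.01 and 0.02, for day 0, day 6 control, ATRA and 9cRA); the labels do not state how it was normalized.

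Control spots (1417 of 45220) and 191 outlier spots, none on a member, were left out. Signals were divided by each array's 75th percentile and taken to log2. Of 43653 probes, 28355 were named by accession and 5113 by current symbol through a table of gene names, 138 by an outdated one, while 10047 keep their original array name. A gene was represented by its probe of highest mean. It was tested where all 3 arrays of at least 1 group had that probe well above background. The model was limma 3.58.1 (lmFit, eBayes; R 4.3.3) over all 12 arrays, two-sided, with Benjamini-Hochberg adjustment over 17625 genes in each of 6 comparisons. The code was tested on simulated data.

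Values on every array were given for the 5 called members of each class with the largest difference in a comparison, and for HIF1A, EPAS1 and PDK1. Genes that are no members were named as the 2 with the smallest adjusted p in each direction at day 6, and the others were chosen after their values were seen (RBX1, CUL2, ARNT2, CREBBP, JMJD6, HILPDA, ZNF395, WSB1, PFKFB2, PCK2, SLC2A8, FBP2, SLC2A4, PPP1R3C and PYGL). Members and lists were chosen with earlier results of these data known. Alternatives were normexp background correction (offset 50), median scaling, quantile normalization, other filters, the slide as a fixed or random block, array number as a block, the 6 compared arrays alone, the mean of a gene's probes, trend and robust eBayes, the authors' log2 table, and leaving out each array. One more was added after seeing the data: each probe fitted on its own. Promoter and protein sequences were not analysed here, and some genes of the lists are not reported here. The number of arrays limits the precision.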

Additional observations from a re-analysis of the deposited data

How the results depend on the processing

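The 24 counts of higher and lower members kept within 1.5 times their value in most alternatives. The exceptions all had low counts or came with the slide. Glycolytic genes lower at day 6 than at day 0 (1, LDHB) numbered 0 with quantile normalization, no filter on dim probes, the slide as a fixed or random block, array number as a replicate block, only the 6 arrays compared, the mean of a gene's probes, and a majority of separately fitted probes, and 0 to 1 on leaving out single arrays. Hypoxia genes lower at day 6 numbered 1 to 2 on leaving out single arrays. With the slide as a fixed block, 9cRA against the day 6 control gave 1 glycolytic gene higher, 5 lower and 2 hypoxia genes lower. Glycolytic genes lower with ATRA than at day 0 numbered 1 with quantile normalization, 0 with the slide as a fixed block and 1 as a random block. Glycolytic genes lower with 9cRA than at day 0 (0) numbered 2 with normexp, 3 with median scaling, 1 with a filter on all 12 arrays, 2 with only the 6 arrays compared, 2 with the mean of probes, 1 with trend and robust eBayes, and 0 to 1 on leaving out single arrays. Hypoxia genes lower than at day 0 numbered 1 with the mean of probes, with ATRA and with 9cRA. EGLN3, near background, turned sign in 9cRA against day 0 (-0.29 with the slide as a fixed block, against 0.53), and P4HA2, not called against day 0 (0.05 with ATRA, 0.10 with 9cRA), was called lower with the mean of its probes (-0.18 and -0.15). The cause of these changes was not tested. The authors' deposited table turned the direction of no member value, but gave 0 for GAPDH and TPI1 in 9cRA against the day 6 control, and so no direction there. Array numbers did not pair the arrays (correlations of -0.20 to 0.10 between same-numbered arrays), and array number as a replicate block left 226 of 228 member calls on the same side and made 2 weaker. Of 228 member values, the slide as a fixed block made 21 weaker and 4 stronger, the mean of a gene's probes 7 and 13, quantile normalization 5 and 16, and the slide as a random block 7 and 4. Dim signal limits PFKFB4 and EGLN3.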
